A study of Mus musculus with 4 samples.

Results

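Endothelium-rich spots of mouse dorsal skin are the capture spots with the highest combined level of 6 endothelial genes: *Pecam1*, an adhesion molecule of endothelial junctions, *Cdh5*, the cadherin of those junctions, *Kdr*, the main VEGF receptor of blood vessels, *Emcn*, a sialomucin of the endothelial surface, *Egfl7*, a secreted endothelial factor, and *Cldn5*, a tight junction claudin. Each spot with at least 250 detected genes received a score, the mean over these genes of the natural log of 1 plus the UMIs per 10000 UMIs of that spot, and the top 4% of spots in each slice were taken. This rule gave 66, 70, 62 and 58 spots in slices 1 to 4, 256 of 6411 spots in all. UMIs are unique molecular identifiers, so that each counts a captured RNA molecule and not a PCR copy.

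The skin came from 3 mice of the genotype *R26-tdTomato; Krox20-CreERT*, collected at P38 (postnatal day 38) after 4-hydroxytamoxifen was given at P2. In these mice a tamoxifen-dependent Cre is driven from the *Krox20* (*Egr2*) locus and switches on a red reporter, and no group without the alleles or the drug was analysed here, so that all values describe skin with this genotype and treatment. Each of the 4 slices held a section of each mouse on a Visium array, where barcoded spots wider than a cell capture RNA and keep its position. The slices are technical replicates, and their SD does not cover differences between mice. A spot can hold several cells of different types, so that fewer endothelial cells and less RNA per cell cannot be told apart.

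Skin is supplied by arterioles, capillaries and venules of the dermis and of the underlying fat and muscle, and is drained by lymphatic vessels. Endothelial cells line both kinds of vessel. Blood endothelium stands on a basement membrane and is wrapped by pericytes or smooth muscle, whereas initial lymphatic vessels carry few mural cells, take up fluid and guide dendritic cells with the chemokine CCL21. Endothelial identity is set by ETS family transcription factors such as ERG and FLI1, which bind a GGAA core, and lymphatic identity by PROX1.

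The slices held 26910422, 24128004, 21384253 and 19393026 UMIs. The endothelium-rich spots were shallower than the rest in every slice, with medians of 11499.5, 9285, 8755 and 8635 UMIs against 14736, 12161, 12115 and 11818.5. At this depth the score rested on few molecules. The median endothelium-rich spot held 7, 6, 5.5 and 6 UMIs of the 6 genes together, against 1 UMI in the median other spot of every slice. At least 3 of the 6 genes were seen in 241 of the 256 spots. The lowest score inside the limit and the highest outside it were 0.441 and 0.440 in slice 1, 0.479 and 0.478 in slice 2, and 0.463 and 0.462 in slice 3, and both were 0.474 in slice 4, so that the limit cuts a continuous range. In an alternative choice, spots under 5500 UMIs were left out, so that 1586, 1561, 1375 and 1326 spots remained. When these were thinned to 5500 UMIs each, 35 of 63, 40 of 62, 29 of 55 and 30 of 53 chosen spots were among the original ones. As a description of the choice itself, the 6 genes together were at 603, 678, 635 and 718 CPM (UMIs per 1000000 UMIs of the same spots) in the chosen spots, and at 92.7, 100.1, 108 and 103 CPM in the rest.

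The spots were scattered along all sections, as the map of the 4 slices shows. They formed 201 groups of touching spots, of which 162 were single spots, and no group held more than 4. Of the neighbours of an endothelium-rich spot, 8.14% ± 2.04 (SD, n = 4 slices) were endothelium-rich too, against 3.82% ± 0.0378 for the neighbours of other spots. Visium barcodes mark array positions, and 750 of 2485 barcodes occurred in all 4 slices. When each slice was split by position into 3 strips, these held 56, 110 and 90 of the spots. The strips only approximate the sections. The study kept a distorted section out of its own work, and whether any deposited spot comes from it is not given in the sources used here, so that all spots were used.

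**Figure D1:**
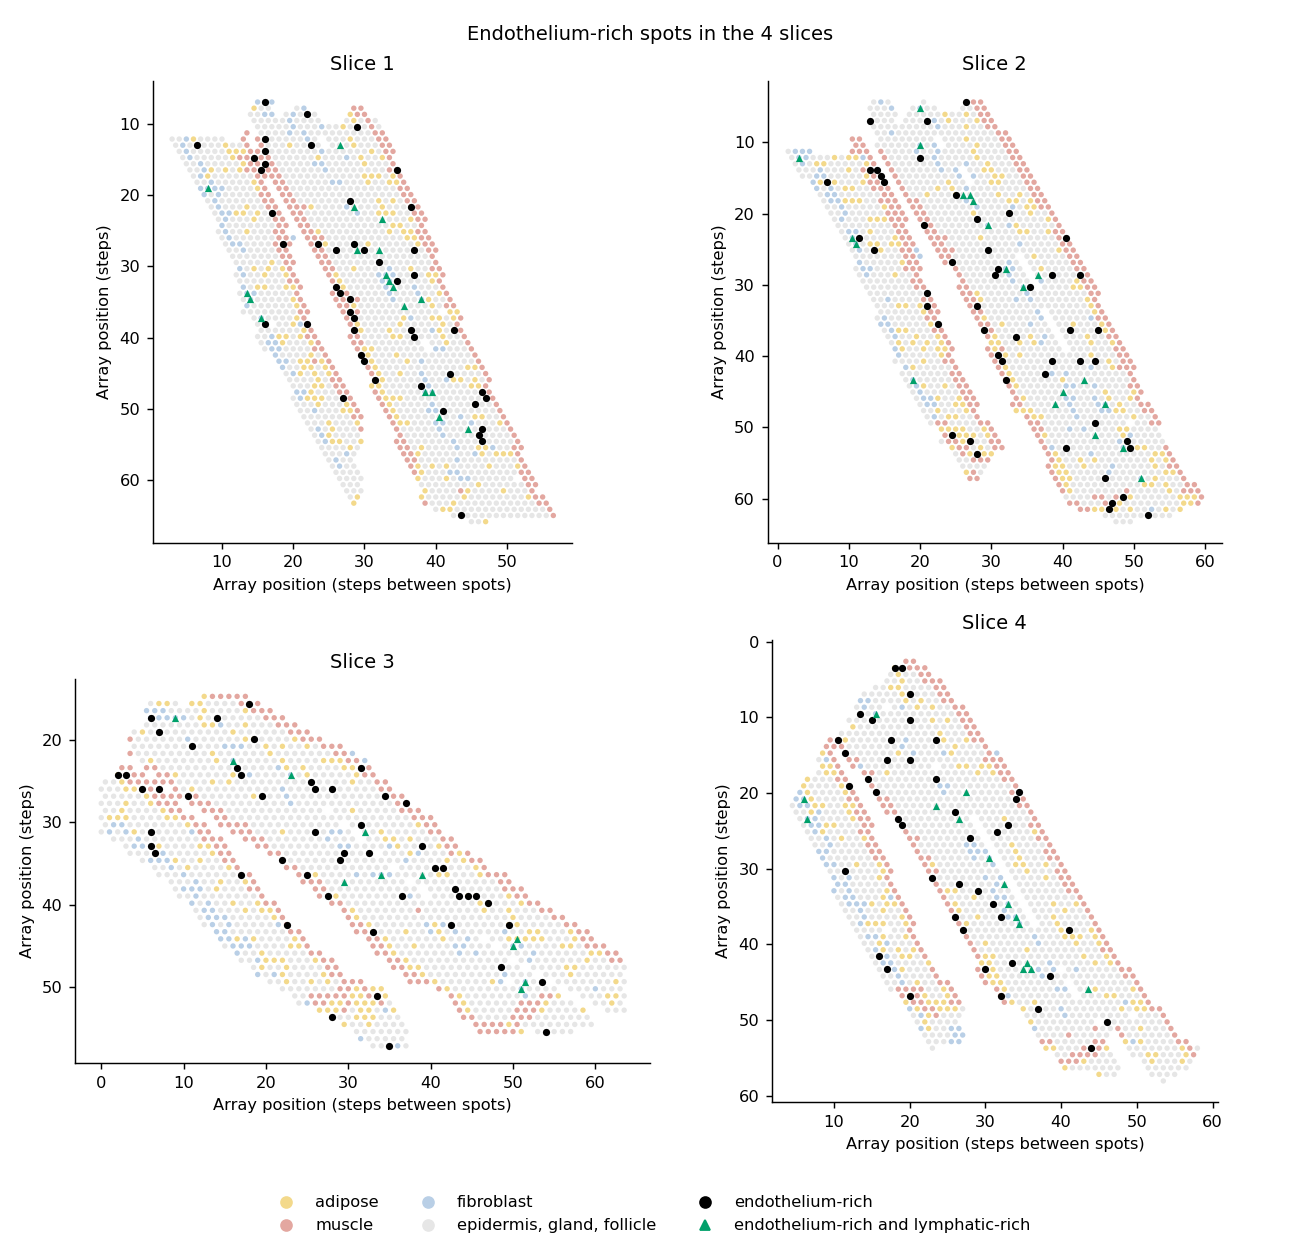
Position of every kept spot in the 4 slices, in steps between neighbouring spots on both axes, coloured by the tissue marker list with the highest relative score. Black circles are endothelium-rich spots and green triangles those of them that were also lymphatic-rich; the 256 spots lie scattered along all sections, and no triangle lies on a muscle spot.

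The label was checked on endothelial genes that the score did not use. Endothelium-rich spots had more RNA of nearly all of them than the other spots of the same slices. Of 22 listed pan-endothelial genes, 20 rose and none fell, with a median log2 fold change of 1.57, beside a median of -0.04 over all 13715 genes tested. Over all of those genes 10.4% rose and 8.31% fell in the same comparison, 18.7% together (edgeR quasi-likelihood test, adjusted p under 0.05). The summed level of the 22 genes was 953, 1041, 1063 and 1110 CPM in the endothelium-rich spots and 389, 391, 420 and 431 CPM elsewhere. The ranges did not overlap, and the ratio was 2.55-fold. The most abundant of the 22 genes was *Cd34*, whose part in this sum was not tested.

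*Tie1*, an orphan receptor of the angiopoietin pathway, was at 29.2, 34.2, 17.2 and 30.7 CPM in the endothelium-rich spots of slices 1 to 4. It was at 5.30, 5.77, 5.01 and 6.16 CPM in the other spots. Every value of the first group lay above every value of the second, as for 12.3% of all genes tested, and the log2 fold change was 2.27 ± 0.23 (SE, edgeR adjusted p = 2.1e-10). *Vwf*, the clotting factor stored in endothelial granules, rose by 2.06 ± 0.20, from 8.72 to 10.9 CPM in other spots up to 25.3 to 56.4 CPM. *Plvap*, which forms the diaphragms of capillary fenestrae and caveolae, rose by 1.95 ± 0.11 and *Aqp1*, a water channel of capillary endothelium, by 2.00 ± 0.09 on the log2 scale. *S1pr1*, the sphingosine-1-phosphate receptor that stabilizes vessels, changed by 2.12 ± 0.23. The adhesion molecule *Icam2* (2.20 ± 0.27) and the apelin receptor *Aplnr* (2.07 ± 0.25) varied more between slices. *Aplnr* in the endothelium-rich spots was at 9.36 CPM in slice 1 and at 25.1 to 38.3 CPM in the other slices. *Palmd* (-0.06 ± 0.19) and *Tspan7* (0.00 ± 0.11) did not pass the test, and *Tspan7* was at 74.4 to 82.5 CPM outside the endothelium-rich spots.

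Among the 15 genes with the highest log2 fold change at 20 CPM or more were *Hoxd9*, a positional homeobox gene, at 2.12 ± 0.25, and *Podxl*, a sialomucin of the vessel lumen, at 2.06 ± 0.23. *Hoxd9* was at 14.0, 24.6, 23.5 and 43.3 CPM in the endothelium-rich spots and at 4.84 to 6.21 CPM in the others, without overlap.

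Transcription factors of endothelium rose as a group. Of 19 on the list, 17 rose and none fell (median 1.56). The ETS factors *Erg* (1.56 ± 0.37), *Fli1* (1.45 ± 0.26) and *Ets1* (1.54 ± 0.25) were among them, as were *Klf2*, which responds to flow (1.31 ± 0.17), *Epas1*, a hypoxia factor (1.08 ± 0.12), *Meox2* (1.85 ± 0.31) and the venous factor *Nr2f2* (1.68 ± 0.24). Several of these genes are scarce at this depth, and *Sox18* stayed between 1.17 and 3.61 CPM even in the endothelium-rich spots. *Klf4* (0.01 ± 0.09) and *Foxo1* (0.07 ± 0.12) did not pass the test. The scarce *Sox18* and *Tal1* passed the filter on low counts through the endothelium-rich sums, so that their calls are no support. The number that rose was 10 with the score from thinned spots, 11 without slice 2, 10 with sums per strip, and 7 when the comparison was kept to the fibroblast, adipose and muscle settings defined below. The calls of *Erg* and *Fli1* were among those that ended in these settings.

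Since pan-endothelial genes and ETS factors rose in the same spots, the sequence before the start site is shown for *Tie1*, *Robo4* and *Eng*, 3 of the pan-endothelial genes that rose and that have a single start in the RefSeq promoter table (GRCm38.p6). The 250 bases upstream of the start are given on the strand of the gene. Capitals mark AGGAAG, a sequence with the ETS core, or its reverse complement CTTCCT. *Tie1* lies on the minus strand with these bases at chr4:118489850-118490099, *Robo4* (a guidance receptor that keeps vessels tight) on the plus strand at chr9:37401722-37401971, and *Eng* (endoglin, a coreceptor of the BMP and TGF-β pathway) on the plus strand at chr2:32646345-32646594.
Tie1: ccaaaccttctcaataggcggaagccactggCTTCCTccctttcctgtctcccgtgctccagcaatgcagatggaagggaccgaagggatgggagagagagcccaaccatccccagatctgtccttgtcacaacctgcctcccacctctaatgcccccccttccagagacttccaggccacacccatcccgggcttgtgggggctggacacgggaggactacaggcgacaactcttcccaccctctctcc
Robo4: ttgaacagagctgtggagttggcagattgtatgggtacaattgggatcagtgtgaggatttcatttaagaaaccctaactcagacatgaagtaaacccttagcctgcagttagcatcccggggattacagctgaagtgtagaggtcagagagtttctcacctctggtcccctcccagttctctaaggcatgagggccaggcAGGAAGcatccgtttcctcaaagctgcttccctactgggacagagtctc
Eng: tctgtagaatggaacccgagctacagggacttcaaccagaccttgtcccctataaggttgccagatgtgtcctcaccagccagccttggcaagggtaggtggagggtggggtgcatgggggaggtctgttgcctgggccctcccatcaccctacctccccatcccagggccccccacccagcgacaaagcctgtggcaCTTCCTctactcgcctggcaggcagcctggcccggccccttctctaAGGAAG

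Of the 22 pan-endothelial genes, 11 were in the promoter table, with 12 starts, and 8 of these starts (66.7%) held the sequence on either strand within the same 250 bases. Over all 32851 starts in the table the share was 29.5%. Of the 7 lymphatic genes described next, 6 were in the table, and 1 of their 7 starts (14.3%) held it. A match is a description of the letters, not of binding. In the same spots *Robo4* rose by 1.55 ± 0.26 and *Eng* by 1.43 ± 0.14.

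**Figure D2:**
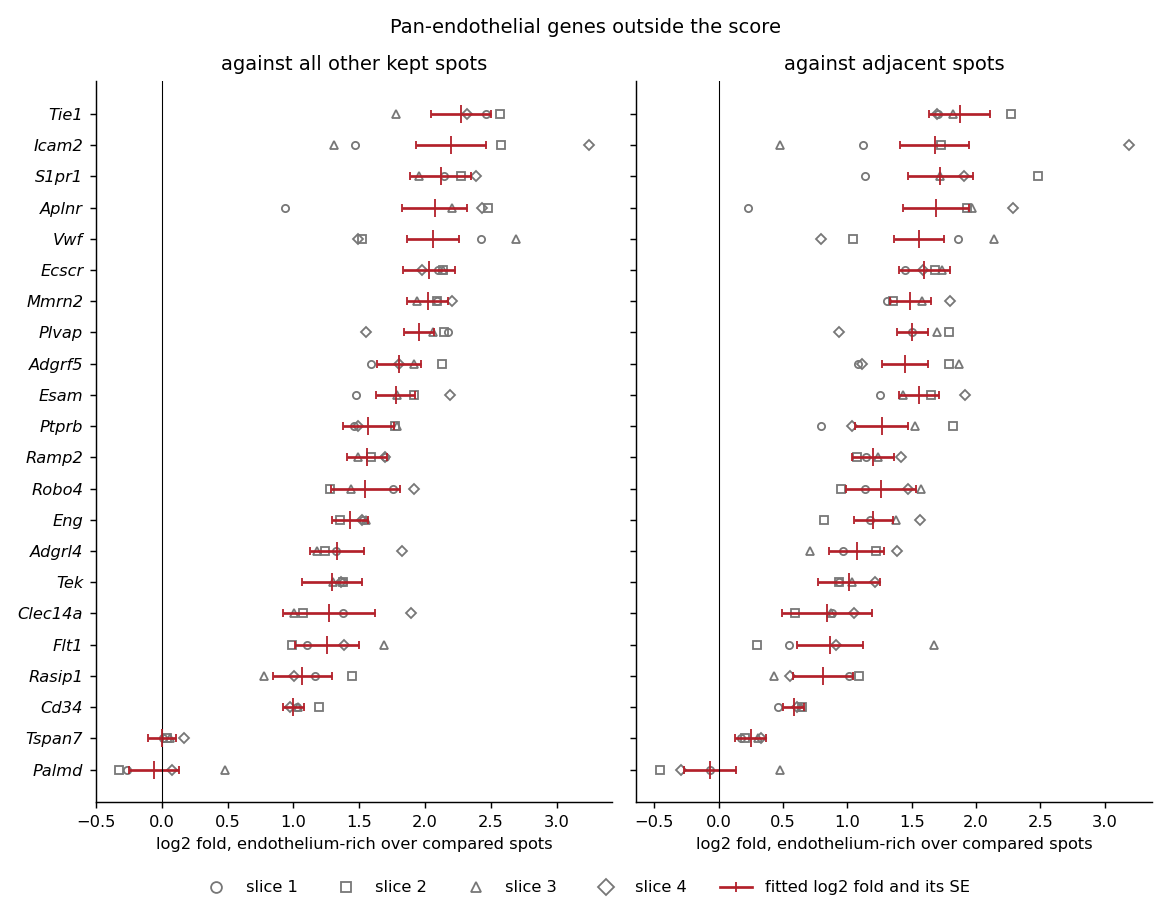
Log2 fold of 22 pan-endothelial genes that the score did not use, in endothelium-rich spots over all other kept spots (left) and over adjacent spots (right); grey symbols are the ratio of CPM in each slice and red marks the fitted value with its SE. All genes but Tspan7 and Palmd lie above 1 or close to it on the left, and most are lower on the right.

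Lymphatic endothelial genes showed the highest fold changes of all lists. Of 7 lymphatic genes, 6 rose and none fell, with a median log2 fold change of 2.59. *Ccl21a*, the lymphatic chemokine, was at 250.3, 289, 221 and 279.7 CPM in the endothelium-rich spots. Its level in the other spots was 45.3, 30.8, 35.3 and 35.0 CPM. The slices did not overlap, and the log2 fold change was 2.77 ± 0.10 (edgeR adjusted p = 3.7e-24). *Prox1*, the factor that sets lymphatic identity, was at 9.36, 8.21, 3.14 and 16.2 CPM in the endothelium-rich spots and at 0.819 to 0.921 CPM in the others. It passed the filter on low counts only through the endothelium-rich sums and could not be fitted against adjacent spots, so that its call is no support. Against all other spots, the other 5 genes that rose did not depend on the filter in this way. *Flt4*, the receptor for VEGF-C (2.78 ± 0.29), *Mmrn1*, a multimerin of lymphatic vessels (2.59 ± 0.22), *Reln*, the glycoprotein reelin made by lymphatic endothelium (2.43 ± 0.26), and the hyaluronan receptor *Lyve1* (2.33 ± 0.34) rose too. *Pdpn*, which keratinocytes and fibroblasts also make, did not pass the test (0.38 ± 0.18). *Ccl21a* carries 2 identifiers in the files, which were summed.

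The lymphatic RNA was held by a minority of the spots. The 256 spots with the highest lymphatic score, chosen in the same way, included 64 endothelium-rich spots (25.0% of each set), whereas 3.99% of all kept spots were lymphatic-rich. These 64 spots held lymphatic genes at 1473 ± 107 CPM (SD, n = 4), by choice, and the other 192 endothelium-rich spots at 76.2 ± 15.7 CPM. No UMI of a lymphatic gene was found in 101 of the 256 spots. Of the 64 spots, 35 lay in the fibroblast setting described below, 1 in the adipose setting and 0 in the muscle setting. The rest lay in epithelial settings, with 10 in outer root sheath, 9 in sebaceous gland, 6 in epidermis and 3 in inner sheath and shaft.

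Genes of particular blood vessel types were raised as well. Venous genes rose in 8 of 9 cases tested (median 1.54), with *Ackr1*, the chemokine receptor of venules, at 1.54 ± 0.30. *Lrg1*, a glycoprotein of venules, was at 85.4, 90.3, 119 and 74.0 CPM against 27.1 to 30.03 CPM elsewhere, without overlap (1.61 ± 0.12). Arterial genes rose in 10 of 12 cases (median 1.31). The arterial connexins *Gja5* and *Gja4* changed by 2.15 ± 0.50 and 1.61 ± 0.27, and *Bmx* passed the filter on low counts only through the endothelium-rich sums. The calls of *Gja4*, *Sox17* and *Sema3g* were among those that ended in the fibroblast, adipose and muscle settings alone. *Efnb2* (0.05 ± 0.12) and *Unc5b* (-0.29 ± 0.13), which the epithelium of skin also makes, did not pass the test. Of 14 genes of capillaries and lipid uptake, 10 rose (median 0.99). Among them were *Gpihbp1*, which carries lipoprotein lipase to the capillary lumen (1.15 ± 0.15), the fatty acid transporter *Cd36* (1.04 ± 0.09) and the caveolar genes *Cav1* (1.27 ± 0.10) and *Cavin2* (1.27 ± 0.14). *Fabp4*, made by both capillaries and adipocytes, differed by only 0.41 ± 0.06. *Sele*, a selectin of inflamed venules, had no UMI in any endothelium-rich spot.

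Several receptors of vessel growth were higher in the endothelium-rich spots. Of 16 genes of the VEGF, angiopoietin and apelin pathways, 7 rose and none fell, and these were the receptors *Flt1* (1.26 ± 0.24), *Flt4*, *Nrp1* (1.19 ± 0.33), *Tek* (1.29 ± 0.23), *Tie1* and *Aplnr* and the ligand *Apln* (1.82 ± 0.50). *Vegfa* (0.32 ± 0.30), *Vegfb* (0.43 ± 0.22) and *Vegfd* (0.50 ± 0.39) did not pass the test, nor did the receptor *Nrp2* (-0.00 ± 0.13), the most abundant gene of the list. The call of *Nrp1* ended with the top 2% of spots, with the thinned score and in the fibroblast, adipose and muscle settings alone, and that of *Apln* with the thinned score. The difference between receptors and ligands was not tested. In the Notch list 4 of 12 genes rose, among them *Notch4* (1.28 ± 0.40) and *Dll4* (1.41 ± 0.44), and 2 fell, *Notch1* (-0.26 ± 0.09) and *Jag1* (-0.34 ± 0.11), both also epidermal genes. The falls of *Notch1* and *Jag1* did not pass with DESeq2, with the top 2% of spots or with library size alone, nor did the rise of *Dll4* with DESeq2 or the top 2%, or that of *Notch4* in the fibroblast, adipose and muscle settings alone. In the BMP and TGF-β list the receptors *Eng*, *Acvrl1* (0.95 ± 0.19) and *Tgfbr2* (0.81 ± 0.11) rose, whereas the inhibitory SMADs *Smad6* (-1.12 ± 0.24) and *Smad7* (-0.64 ± 0.17) and the target *Id3* (-0.39 ± 0.10) fell. The calls of *Smad7* and *Id3* ended with the top 2% of spots and in the fibroblast, adipose and muscle settings alone, and that of *Smad7* also with the thinned score.

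RNA of the cells and matrix that surround vessels was also higher in the endothelium-rich spots. Of 11 pericyte genes 9 rose (median 1.29), including *Rgs5* (1.49 ± 0.12) and *Pdgfrb* (1.29 ± 0.17). All 9 smooth muscle genes rose (median 0.93), among them *Myh11* (1.46 ± 0.19) and *Acta2* (0.93 ± 0.10). This list, led by *Tpm2*, was at 2653 ± 342 CPM in other spots of the muscle setting and at 608 ± 39.8 CPM in those of the adipose setting, so that its level also moved with skeletal muscle, whose part in the rise was not tested. In the fibroblast, adipose and muscle settings alone the pericyte genes *Kcnj8*, *Abcc9* and *Rgs4* and the smooth muscle genes *Lmod1*, *Synpo2* and *Cnn1* no longer passed, and with the thinned score *Rgs4*, *Kcnj8*, *Higd1b* and *Tagln* did not. Of 14 basement membrane genes 13 rose (median 0.90), with *Sparcl1* at 1.78 ± 0.11 and *Col4a1*, the main collagen of the vascular basement membrane, at 0.91 ± 0.08. The laminin chain *Lama5* (-0.15 ± 0.14), abundant under epithelia, did not pass. The most mural-rich 256 spots shared 44 spots (17.2% of each set) with the endothelium-rich ones.

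Markers of other cell types moved with membership too. Skeletal muscle genes rose in 6 of 6 cases (median 1.05), fibroblast genes in 6 of 6 (median 1.02) and macrophage genes in 9 of 10 (median 0.95). Their summed levels, led by *Acta1*, *Col1a2* and *Cd74*, were higher in the endothelium-rich spots of every slice, by 1.08 ± 0.38, 1.10 ± 0.14 and 0.96 ± 0.21 on the log2 scale (SD, n = 4). With a gene-wise spread less shrunken by outlying genes (the robust option of edgeR), *Ckm* and *Myh4* of the muscle list no longer passed. Schwann cell genes rose in 4 of 7 cases (median 0.80), with *Mbp* at 1.30 ± 0.17. In contrast, all 5 melanocyte genes fell (median -1.13), led by *Mlana*, which dropped from 75.4 to 93.5 CPM in other spots to 32.8 to 39.2 CPM. All 5 inner root sheath and hair shaft genes tested (median -0.56) and 5 of 6 epidermal genes (median -0.51) fell, the epidermal *Lor*, *Krtdap* and *Krt10* not with the robust option. The number of epidermal genes that fell was 1 with the thinned score and 0 in the fibroblast, adipose and muscle settings alone, where *Krtdap* (0.37 ± 0.11, edgeR adjusted p = 0.018) and *Krt10* (0.40 ± 0.12, adjusted p = 0.030) rose instead. Among the other genes with the lowest fold changes were *Ptgds*, a prostaglandin synthase (-1.41 ± 0.12), *Mycn*, a factor of the MYC family (-1.29 ± 0.24), *Wif1*, a secreted Wnt inhibitor (-1.19 ± 0.21), and the ligand *Wnt10a* (-1.16 ± 0.24). Sebaceous genes rose in 2 of 6 cases, outer root sheath genes in 3 of 6, and mast and T cell genes in 1 of 6. The outer root sheath calls (*Krt14*, *Krt15*, *Sox9*) all ended without the replicate block, with the top 2% of spots and in the fibroblast, adipose and muscle settings alone, and the mast cell call (*Cma1*) ended in 6 of 8 alternatives. No adipose gene of 6 passed the test (median 0.20), with *Adipoq* at 86.5, 32.8, 59.6 and 36.1 CPM in the endothelium-rich spots and 39.5 to 51.8 CPM elsewhere. *Egr2* (*Krox20*) was at 25.7, 53.3, 39.2 and 48.7 CPM against 31.0, 33.5, 30.0 and 38.8 CPM, which overlap (0.24 ± 0.16). When the comparison was kept to the fibroblast, adipose and muscle settings, 682 genes rose and 453 fell instead of 1431 and 1140. There 3 of the 5 melanocyte genes, *Mlana*, *Dct* and *Tyr*, no longer passed, and *Tyr* did not pass with DESeq2, without the replicate block, with the top 2% of spots or with the thinned score either. The part of tissue layer and of the other cell types in these results was not tested.

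Each endothelium-rich spot was also set against the spots next to it, 1146 spots a single grid step away. Over 10898 genes tested, 6.14% rose and 2.85% fell, 8.99% together (edgeR, adjusted p under 0.05), with a median of -0.02. Endothelial genes still stood out. Of 22 pan-endothelial genes 19 rose (median 1.26), and *Clec14a* (0.84 ± 0.35) joined *Palmd* and *Tspan7* among those that did not pass. *Tek*, *Flt1* and *Rasip1* also did not with DESeq2 or with the top 2% of spots, nor *Adgrl4* with the top 2%. Of the endothelial transcription factors tested 8 of 14 rose, and of the arterial genes 5 of 8. With DESeq2 the factors *Erg*, *Fli1* and *Meox2* and the arterial genes *Gja4*, *Cxcl12* and *Sema3g* no longer passed. With the top 2% of spots *Fli1*, *Klf2*, *Mef2c* and *Cxcl12* did not. The summed level of the 22 pan-endothelial genes in the adjacent spots was 513, 494, 487 and 533 CPM, 2.05-fold below the endothelium-rich spots. Of 6 lymphatic genes tested 5 rose (median 1.88), with *Ccl21a* at 50.03 to 78.7 CPM in the adjacent spots, below every endothelium-rich value, as for 6.92% of all genes (1.95 ± 0.10, edgeR adjusted p = 8e-24). Among the 15 called genes with the highest log2 fold change at 20 CPM or more were *Tie1* (1.87 ± 0.24), *S1pr1* (1.72 ± 0.25), *Csf2rb2*, a cytokine receptor chain (1.68 ± 0.27), and *Aqp1* (1.64 ± 0.10). *Tie1*, *S1pr1* and *Csf2rb2* passed the filter on low counts only with the help of the endothelium-rich sums. The same holds for the lymphatic *Mmrn1* and *Reln*, so that the calls of these genes against adjacent spots are no support.

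Markers of other cell types also differed from the adjacent spots. Muscle and fibroblast genes each rose in 6 of 6 cases (medians 0.73 and 0.54), macrophage genes in 9 of 10 (0.54), basement membrane genes in 13 of 14 (0.65) and pericyte genes in 5 of 9 (0.84). All 6 epidermal genes fell, with a median of -0.93 where it was -0.51 against all other spots. Cornified envelope genes were among the 10 called genes with the lowest log2 fold change at 20 CPM or more. *Lce1a1* was at -1.44 ± 0.20, *Lce1m* at -1.27 ± 0.12 and *Lor*, the envelope protein loricrin, at -1.06 ± 0.08. *Smyd5* (-1.20 ± 0.27), *Dkkl1* (-1.18 ± 0.26) and *Mycn* (-1.07 ± 0.26) were among the 10 too. *Lor* was at 258, 341, 354 and 361 CPM in the endothelium-rich spots and at 704, 666, 497 and 911 CPM next to them. With the robust option *Lor*, *Krtdap*, *Krt10*, *Ckm*, *Myh1*, *Myh4*, *Col1a1*, *Col1a2* and *Mbp* no longer passed against adjacent spots. With the top 2% of spots no muscle gene, 2 macrophage genes and 3 pericyte genes rose. The Lce1 genes are close copies, and reads may have been split between them. DESeq2 called fewer genes in this comparison, 269 higher and 31 lower instead of 669 and 311. With DESeq2 *Mrc1*, *C1qa*, *C1qc*, *H2-Aa*, *H2-Ab1* and *Cd74* of the macrophage list and *Lamb1*, *Lamc1*, *Nid1*, *Nid2* and *Col18a1* of the basement membrane list no longer passed.

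**Figure D3:**
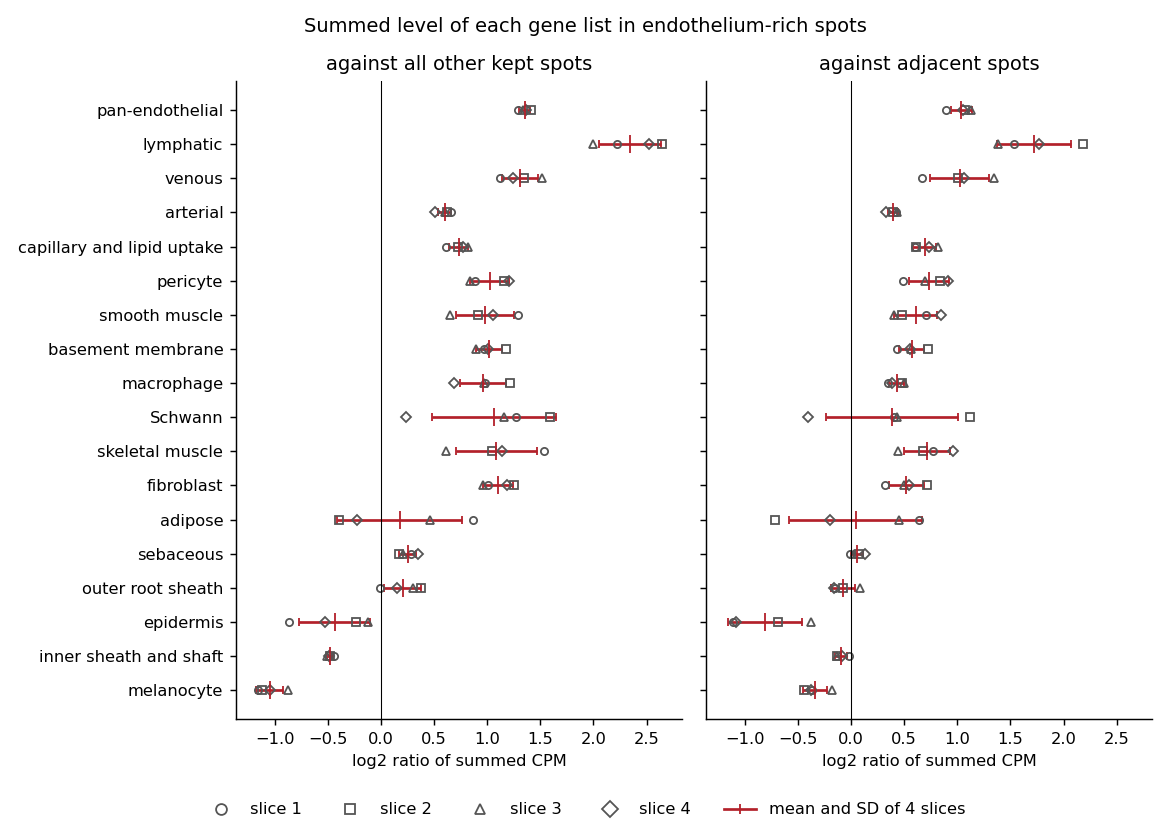
Log2 ratio of the summed CPM of each marker list in endothelium-rich spots over all other kept spots (left) and over adjacent spots (right); symbols are the 4 slices and red marks their mean and SD. The lymphatic list lies between 2.00 and 2.65 on the left, the pan-endothelial list between 1.29 and 1.41, and the melanocyte list below -0.87.

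The setting of the spots was described by the highest of 7 tissue marker scores, each taken relative to its own slice. Of the endothelium-rich spots 64 fell to muscle, 51 to fibroblast-rich dermis, 48 to outer root sheath, 31 to adipose tissue, 26 to sebaceous gland, 21 to inner sheath and hair shaft, and 15 to epidermis, and 36 of 256 lay within 0.25 SD of another class. The share in fibroblast-rich dermis was 19.8% ± 3.07 (SD, n = 4) against 6.46% ± 0.365 of other spots. In muscle it was 25.0% ± 3.82 against 16.1% ± 1.08, and in inner sheath and shaft 8.26% ± 1.78 against 28.3% ± 0.993. These 3 differences and that for epidermis (5.87% ± 1.54 against 10.03% ± 0.812) had the same sign in 4 of 4 slices. The exact sign-flip permutation test over 4 slices cannot give a two-sided p below 1 in 8, which each of these reached, and its adjusted value over 7 settings was 0.219. The adipose share was 12.1% ± 5.61 against 12.1% ± 0.249, higher in 2 slices and lower in the other 2.

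Distance to fat gave no clear difference. Adipose-rich spots were the top 10% of each slice by adipose genes, and the endothelium-rich spots lay 2.05, 2.19, 1.92 and 2.53 grid steps from the nearest of them on average. Other spots lay 2.02, 2.05, 1.94 and 2.03 steps away. The difference was 0.162 ± 0.237 steps (SD, n = 4), farther in 3 of 4 slices, with a two-sided p of 0.25 in the exact sign-flip permutation test. It ranged from -0.0423 steps, with the adipose-rich spots cut at 5%, to 0.300 steps, with the fibroblast, adipose and muscle settings alone. Of the endothelium-rich spots 12.5% ± 5.43 were adipose-rich themselves, and 21.4% ± 5.72 lay 4 or more steps away, against 9.91% ± 0.219 and 14.4% ± 1.34 of the others. Endothelium-rich spots were nearer to fibroblast-rich spots, by 0.789 ± 0.271 steps in 4 of 4 slices, and farther from inner sheath and shaft spots, by 0.580 ± 0.0831 steps in 4 of 4. They were also nearer to epidermis spots in 4 of 4 slices (-0.355 ± 0.245 steps), although fewer of them fell to the epidermis setting. From muscle spots they were farther in 3 of 4 slices (0.338 ± 0.267 steps).

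**Figure D4:**
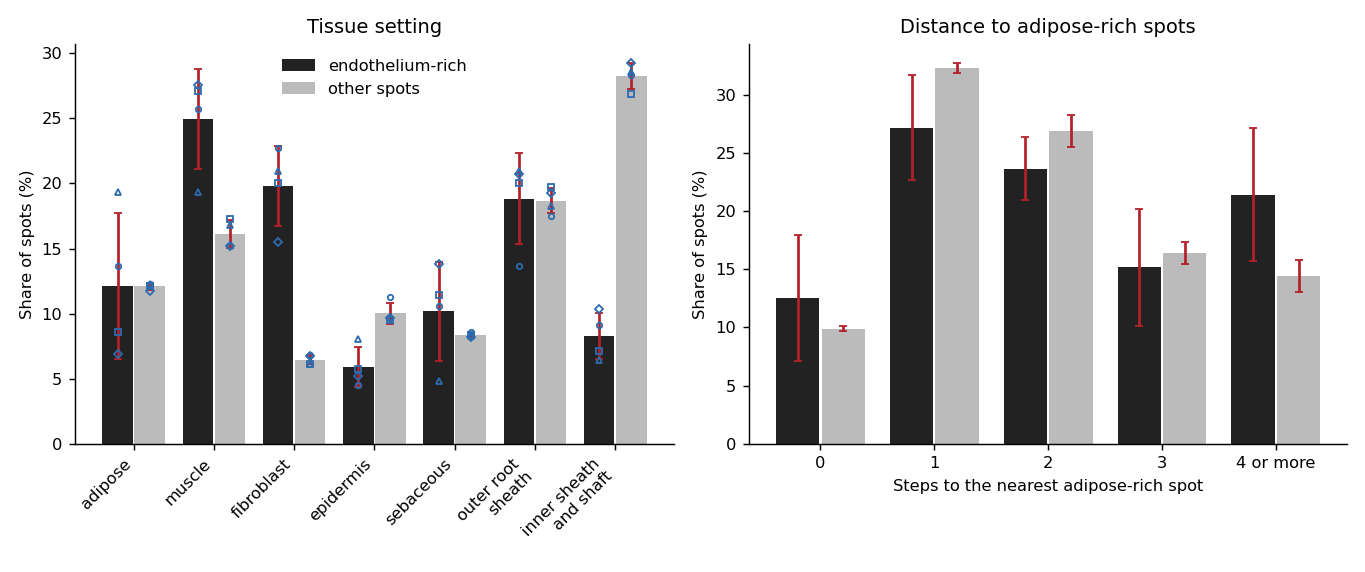
Left, share of endothelium-rich spots (dark bars) and other kept spots (light bars) in each tissue setting in percent, with the slices as blue symbols. Right, share of the same spots by steps to the nearest adipose-rich spot; bars are means and error bars SDs of 4 slices, and 21.4% of endothelium-rich spots lay 4 or more steps away.

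Lymphatic and capillary genes differed between the settings more than the pan-endothelial genes did, in values given as a description. Pan-endothelial genes were at 1166 ± 200.3 CPM in the endothelium-rich spots of adipose tissue, 1065 ± 164 CPM in muscle and 1105 ± 122 CPM in fibroblast-rich dermis, values that overlap. Other fibroblast-rich spots, at 746 ± 49.3 CPM, were above the other spots of adipose tissue (419 ± 34.8 CPM) and muscle (456 ± 17.2 CPM). The log2 ratio to other spots of the same setting was 0.56 ± 0.09 in fibroblast-rich dermis. It was 1.46 ± 0.18 in adipose tissue and 1.21 ± 0.21 in muscle. *Cd34* was the most abundant gene of the pan-endothelial list, and its part in these levels was not tested. Lymphatic genes in the endothelium-rich spots were at 1098 ± 369 CPM in fibroblast-rich dermis, 89.0 ± 49.9 CPM in adipose tissue and 37.4 ± 16.5 CPM in muscle. In muscle this was below the 47.1 ± 7.01 CPM of other muscle spots, within the spread. In the epithelial settings lymphatic genes were at 407 ± 184 CPM, against 75.6 ± 6.72 CPM in the other epithelial spots. Genes of capillaries and lipid uptake followed another order. They were at 4607 ± 227 CPM in adipose tissue, 3143 ± 231 CPM in muscle, 2497 ± 419 CPM in the epithelial settings and 2118 ± 282 CPM in dermis. *Fabp4*, the most abundant gene of that list and also made by adipocytes, was at 2634 ± 264 CPM in the endothelium-rich and 1554 ± 122 CPM in the other adipose spots, and its part in that order was not tested.

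Whether genes of endothelium-rich spots differed from their surroundings by another amount in adipose tissue than in muscle was tested as an interaction over 10717 genes. Only 3 genes passed (0.028%; edgeR, adjusted p = 0.026 each), and none was an endothelial marker. The difference of log2 fold changes, adipose minus muscle, was 1.68 ± 0.37 for *Adamts5*, an aggrecanase, 0.90 ± 0.20 for *Krt5* and 1.19 ± 0.26 for *Krt77*, both keratins of skin epithelium. *Adamts5* averaged 120.8 CPM in endothelium-rich and 37.8 CPM in other adipose spots, against 44.9 and 51.2 CPM in muscle. With 31 and 64 endothelium-rich spots in these settings the count was unstable, from 0 to 38 genes over the settings tried.

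Globin RNA, which red blood cells carry, was higher in the endothelium-rich spots of every slice. The copies of the alpha genes (*Hba-a1*, *Hba-a2*) and of the beta genes (*Hbb-bs*, *Hbb-bt*) are nearly identical, so that their sum is reported. It was 4485, 2270.1, 6001 and 3864 CPM in the endothelium-rich spots, 2268, 1550 (slice 2), 2174 and 1479 CPM in the adjacent spots, and between 1299 and 1580 CPM in the others. The ranges did not overlap for the other spots, whereas the lowest endothelium-rich value and the highest adjacent value nearly met. The log2 fold change was 1.42 ± 0.11 against all other spots (edgeR adjusted p = 8.2e-14) and 1.10 ± 0.06 against adjacent spots. The slices spread far more than this SE, and with the robust option of edgeR the SE was 0.311 and the adjusted p 0.069 against all other spots, and 0.203 and 0.081 against adjacent spots. *Alas2*, the heme synthesis enzyme of red cell precursors, rose (1.42 ± 0.29), and *Slc4a1*, the anion exchanger of the red cell membrane, did not pass the test (-0.29 ± 0.20). Against adjacent spots 5 of these 6 red cell genes rose and 1, *Slc4a1*, fell. There the calls of *Alas2* and *Slc4a1* ended with DESeq2, without the replicate block and with the thinned score.

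A few spots held most of the globin. The 5 endothelium-rich spots with the most globin carried 61.2%, 65.1%, 81.6% and 62.3% of the globin UMIs of all such spots in slices 1 to 4. With these 5 taken out of the endothelium-rich spots of each slice, and no spot taken out of the others, the log2 fold change was -0.10 ± 0.08. When the 8% of spots with the most globin were left out on both sides, it was 1.19 ± 0.09. The median endothelium-rich spot held 581, 649, 473 and 850.1 CPM of globin against 522, 387, 397 and 452 CPM in the median other spot, a log2 ratio of 0.52 ± 0.37 (SD) that was positive in 4 of 4 slices. No globin UMI was found in 14 of the 256 spots. Of the 256 most globin-rich spots 25 were endothelium-rich (9.77% of each set, against 3.99% of all kept spots).

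The most lymphatic-rich and the most globin-rich endothelium-rich spots were mostly different spots. Only 1 of the 256 spots was both lymphatic-rich and globin-rich, and 137 were neither of these nor mural-rich. The 64 lymphatic-rich spots held globin at 1019, 615, 1401 and 826 CPM, below the spots outside the endothelium-rich set in 3 of 4 slices. The other 192 endothelium-rich spots held 5585, 2866, 6834 and 4884 CPM, every value above every value of the first set. These sums rested on few spots. All endothelium-rich spots without the 5 of each slice with the most globin held 1907, 873, 1293 and 1643 CPM, which overlaps the lymphatic-rich ones. That set was cut by globin itself and still contains lymphatic-rich spots, so that the overlap does not show the level of the other 192 spots. Pan-endothelial genes were at 1111 ± 75.0 CPM in the first and 1022 ± 64.2 CPM in the second set, close to the spread between slices. By setting, globin in endothelium-rich spots was highest in muscle, at 7814 ± 4755 CPM against 2568 ± 461 CPM in other muscle spots, and adipose tissue, at 5900 ± 4578 CPM against 2110 ± 313 CPM, with slice 2 the other way (1089 against 1742 CPM). In fibroblast-rich dermis it was at 1653 ± 1290.2 CPM against 1258 ± 302 CPM, higher in 2 of 4 slices. In the epithelial settings it was at 1639 ± 574 CPM against 954 ± 132 CPM, higher in 4 of 4 slices. Since the sets were chosen on the same spots, these values are a description. Of them only the contrast of adipose tissue and muscle was tested, as an interaction. For globin the difference of log2 fold changes, adipose minus muscle, was -0.31 ± 0.24 (edgeR adjusted p = 0.85). Without slice 1 it was -1.17 ± 0.27 (edgeR adjusted p = 0.026), and with each other slice left out it lay between -0.39 and 0.11.

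Away from the endothelium-rich spots the signals fell off within 1 or 2 grid steps. Pan-endothelial genes went from 1042 ± 65.7 CPM in the spots to 507 ± 20.7 CPM at 1 step, 422 CPM at 2 steps and 374 CPM at 4 or more. Lymphatic genes went from 390.2 ± 56.6 to 119 ± 18.9, 83.8 ± 16.6 and 61.3 ± 4.71 CPM at the same distances. Globin went from 4155 ± 1544 CPM to 1868 ± 411, 1224 ± 204 and 1336 ± 147 CPM.

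**Figure D5:**
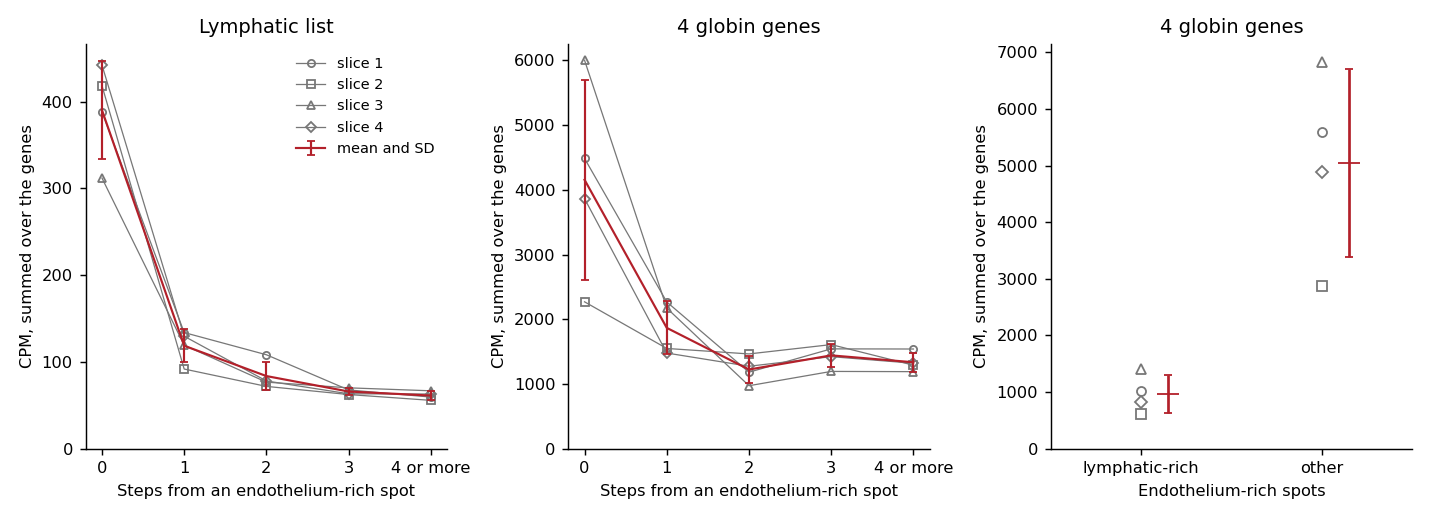
Summed CPM of the lymphatic list (left) and of 4 globin genes (middle) by steps from the nearest endothelium-rich spot, and globin in lymphatic-rich and other endothelium-rich spots (right); grey symbols are the 4 slices and red marks mean and SD. Lymphatic genes fell from 390.2 CPM to 119 CPM at 1 step, and the lymphatic-rich spots held less globin than the other endothelium-rich spots in every slice.

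The pattern was also seen within strips of the slices. In all 3 strips and 4 slices pan-endothelial genes were higher in the endothelium-rich spots, by 1.04 to 1.53 on the log2 scale. Lymphatic genes were higher in 3, 4 and 4 of 4 slices and globin in 4, 4 and 3 of 4, down to -1.11 in the strip where 76.5% to 88.3% of spots held an *Xist* UMI. The labels do not tie strips to mice.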

How the data were processed

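Visium libraries of 4 slices were analyzed. The authors deposited raw UMI counts per gene and spot over tissue, made with Space Ranger 2.0.1 (matrix header); the build is mm10 in the submitters' processing notes. Features with the same symbol were summed (32286 features, 32246 symbols). The spots, lists and tests were chosen with earlier results of these data known. No doublet caller was run. Spots with under 250 genes were left out (9 of 6420), and 5500 UMIs was the depth of thinned spots.

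Counts of the endothelium-rich and of the compared spots were summed per slice, leaving out the 6 score genes. The fit was edgeR's quasi-likelihood test (version 4.0.16, R 4.3.3) with TMM factors, filterByExpr and a slice block, adjusted by Benjamini-Hochberg over all genes fitted. The same fit was also run on simulated counts. DESeq2 1.42.0 was an alternative. Both sums of a slice share their sections (correlations of deviations 0.13, 0.11, 0.06 and 0.10), so that slice numbers pair them by origin. Shares and distances used exact sign-flip tests (computed with numpy 2.4.6). P-values cover the spread between slices alone. Named genes were those of the lists and, per comparison, the 15 highest and 10 lowest log2 fold changes among called genes with the same direction in every slice and at least 20 CPM. *CreERT* was not analysed here.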

Additional observations from a re-analysis of the deposited data

Results flagged for a closer look

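Of 64 groups of 4 slice values examined for a value far from the other 3 (by Dixon's ratio of the gap to the whole range), 2 were found, and chance gives about 1 in 20. The share of endothelium-rich spots in the outer root sheath setting was 13.6% in slice 1, and the other slices reached up to 21.0% (ratio 0.868). The summed level of *Egr2*, *Nes* and *Lrig1* over adjacent spots had a log2 ratio of 0.25 in the highest slice and -0.15 to -0.10 in the others (ratio 0.887).

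The effect of membership differed between the adipose and the muscle setting for 3 genes in the interaction test (edgeR). The log2 difference was 0.90 for *Krt5*, 1.19 for *Krt77* and 1.68 for *Adamts5*, all with an adjusted p of 0.026.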

How the results depend on the processing

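Slices are technical replicates of 3 mice, the score rested on few UMIs per spot, and tissue layers differ between the spots compared. Against all other spots (1431 genes higher, 1140 lower), the counts were 862 and 748 with the top 2% of spots, and 682 and 453 in the fibroblast, adipose and muscle settings alone. Genes lower were 703 without *Cldn5* in the score, 522 with DESeq2 and 756 without the replicate block. Leaving out each slice gave 988 to 1182 higher and 724 to 879 lower. Against adjacent spots (669 and 311), counts were 227 and 87 with the top 2%, 269 and 31 with DESeq2, 408 and 50 without the replicate block, and 1302 and 755 against spots 2 steps away. Genes lower were 538 with the top 8%, 187 without *Pecam1*, 190 without *Kdr* and 484 without the low-count filter. Leaving out each slice gave 456 to 542 higher and 157 to 291 lower. Genes passing the adipose against muscle interaction (3 higher, 0 lower) were 0 with the top 2% or without the block, 38 with the top 8%, 19 after thinning and 21 with library size alone, and 1 to 7 higher and 0 to 3 lower with each slice left out. The globin log2 fold change was -0.10 with the 5 most globin-rich spots taken out of the endothelium-rich spots of each slice, 1.19 with the top 8% taken out on both sides, and 1.42, no longer past the threshold, with the robust option, all added after the data had been seen, and 1.16 to 1.68 with each slice left out. Distances to adipose-rich spots moved by less than 1 SD under every alternative run, and ranged from 0.0480 to 0.223 steps with each slice left out. For the 15 highest and 10 lowest genes of each comparison, 1048 values kept direction and call under the alternatives, 27 lost the call and none reversed. Over all listed and named genes more calls were lost. Of 174 called against all other spots, 17 were lost with DESeq2 and 13 without the replicate block, and 27 of 172, 30 of 173 and 45 of 166 with the top 2%, the thinned score and the fibroblast, adipose and muscle settings alone, where *Krtdap* and *Krt10* turned from lower to higher. Against adjacent spots, 51 of 134 were lost with DESeq2, 35 without the block, 45 of 126 with the top 2% and 31 of 133 with the thinned score. The cause of these changes was not tested.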
